A study of Mus musculus with 9 samples.

Results

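The macrophages of the mouse thyroid were the 378 cells that the authors labelled M, out of 10186 cells in single-cell RNA sequencing data. Cells were chosen by that deposited label alone. The cells came from thyroids of male C57BL/6 mice with no transgene, 7 days after a single intraperitoneal injection of antibody, and each of the 9 samples pooled the thyroids of 6 mice. Mice of group RW received an antibody against ragweed, a control with no target in the mouse, at 40 mg/kg. Mice of group aJ1aJ2 received antibodies that block the Notch ligands Jag1 and Jag2 at 20 mg/kg each. Group aN1aN2 received antibodies that block the receptors Notch1, at 5 mg/kg, and Notch2, at 10 mg/kg. One label gives the age as 10 to 14 weeks and another as 10 to 12 weeks. Each group had 3 samples, and RW 3 and aJ1aJ2 1 carry no replicate number in their titles and are numbered here. The sample numbers in the titles fall into 3 series, of which series A held the unnumbered pair RW 3 and aJ1aJ2 1. Series B held the other RW and aJ1aJ2 samples (RW 1 and RW 2 with aJ1aJ2 3 and aJ1aJ2 4). All 3 aN1aN2 samples form series C.

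Tissue macrophages are phagocytes that live within an organ, clear dead cells and debris, and sense the tissue through Fc, complement and scavenger receptors. Part of them descends from cells seeded before birth and renews in place, and part is replaced by blood monocytes that enter through the chemokine receptor Ccr2. Resident macrophages beside vessels often carry Lyve1 and Folr2, whereas antigen-presenting macrophages carry much MHC class II. In the thyroid they lie among the hormone-producing follicles and the dense capillary net, and in the liver, Notch ligands on vessel walls are known to guide monocytes that become resident macrophages.

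RW held 53, 77 and 58 M cells in RW 1, RW 2 and RW 3. aJ1aJ2 held 36, 72 and 60 in aJ1aJ2 1, aJ1aJ2 3 and aJ1aJ2 4, and aN1aN2 held 9, 3 and 10 in aN1aN2 1, 2 and 3. Each count is a unique molecular identifier (UMI), which stands for 1 captured transcript. M cells were shallow, with a median of 1191.5 UMIs (503 to 31545) and 470 genes, and 167 of them (44.2%) had under 1000 UMIs. The 95 deepest cells held 74.0% of the 1389371 UMIs of M, so levels in CPM, which scale a gene's UMIs to the summed UMIs of a label or sample, weigh those cells most. Summed UMIs per sample were 142512 to 343375 in RW, 144439 to 337828 in aJ1aJ2 and 6295 to 62875 in aN1aN2. The median mitochondrial share of M cells was 3.53% to 7.62% in 8 samples and 12.9% in aJ1aJ2 4. Across all cells, 15 of 10171 barcodes occurred in more than 1 library, and 1 M cell carried such a barcode.

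The 6 genes given as markers of these cells were each at their highest level in M among the 16 labels, which describes the label and is no test, because labels of this kind are built from the same genes. C1qa, C1qb and C1qc encode the 3 chains of complement C1q, which tags dying cells for uptake. C1qa was at 4360 CPM in M (6057 UMIs) and at 56.9 CPM in Th2, the label with the next highest level. Cd74, the invariant chain that chaperones MHC class II, was at 30672 CPM in M and 814 CPM in Th2. Lyz2, the lysozyme of myeloid cells, was at 8082 CPM in M and 604 CPM in S. Retnla, a resistin-like protein of alternatively activated macrophages, had 1283 UMIs in M (923 CPM) and 1 UMI in T1, the next label.

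The 3 C1q genes are neighbours and were high together, so their promoters are shown. On GRCm38.p6, C1qb (ENSMUSG00000036905), C1qc (ENSMUSG00000036896) and C1qa (ENSMUSG00000036887) lie on chromosome 4 between positions 136880126 and 136898844, a span of 18719 bases. The RefSeq promoter table of that build held 2 of the 3, C1qb and C1qc, both on the minus strand. The 250 bases before the start that it gives for each are printed 5′ to 3′. They cover chr4:136886201-136886450 for C1qb and chr4:136892915-136893164 for C1qc. By the gene positions C1qc reaches to 136892936, so the near end of its window lies inside the gene. Capitals mark GAGGAA on either strand (TTCCTC when read on the other), the purine-rich box known for the myeloid factor PU.1. Each window held 1 match, and 23.3% of 32851 promoter windows of the same length held at least 1, so a match describes the letters and no binding was measured.
C1qb: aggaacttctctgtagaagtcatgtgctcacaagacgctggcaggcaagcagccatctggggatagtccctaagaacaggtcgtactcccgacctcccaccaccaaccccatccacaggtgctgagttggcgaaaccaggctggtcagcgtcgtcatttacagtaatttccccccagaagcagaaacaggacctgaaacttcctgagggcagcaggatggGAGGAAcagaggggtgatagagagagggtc
C1qc: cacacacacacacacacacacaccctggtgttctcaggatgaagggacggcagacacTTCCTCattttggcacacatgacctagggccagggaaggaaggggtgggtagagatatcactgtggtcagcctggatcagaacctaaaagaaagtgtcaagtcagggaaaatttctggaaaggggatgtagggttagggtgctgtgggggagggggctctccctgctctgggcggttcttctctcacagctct

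Other genes set M apart from every other label by level. The 15 with the largest ratio of CPM in M to the next label, with at least 50 CPM in M, were Retnla, Fcna, Ear2, Tbxas1, Chil3, Folr2, Fcrls, Ccl24, Fcgr1, C1qc, C1qb, Aif1, Rnase2a, Ccl12 and Trem2. Folr2, a folate receptor of resident macrophages, was at 267 CPM (371 UMIs in M and 21 in Th1, the next label). Trem2, a lipid receptor of phagocytes, was at 176 CPM (245 UMIs, against 43 in Th1). Aif1, the actin-binding protein Iba1, was at 620 CPM, and Fcgr1, the high-affinity IgG receptor, at 112 CPM. Fcna, a ficolin of macrophages, was at 64.8 CPM and Tbxas1, thromboxane synthase, at 66.2 CPM. Ear2 and Rnase2a belong to a family of near-identical ribonucleases, so their separate counts are uncertain.

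Of 19 core macrophage genes all had UMIs in M and 17 were highest there, among them Csf1r, the receptor for the growth factor that sustains macrophages (714 CPM), and Adgre1, which encodes F4/80 (331 CPM). All 8 MHC class II genes were highest in M, with a summed level of 63297 CPM. Of 14 resident macrophage genes, 10 were highest in M. Lyve1, a hyaluronan receptor shared with lymphatic vessels, was not one of them, with 209 CPM in M and 406.5 CPM in EC3. Monocyte genes numbered 8 of 17 highest in M, among them Ccr2 at 451 CPM and Cx3cr1, the fractalkine receptor, at 348 CPM. Dendritic cell genes numbered 8 of 13 highest in M, led by Cd209a at 261 CPM, while Flt3, Xcr1 and Zbtb46 were at 33.8, 14.4 and 10.1 CPM.

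Markers of most other cell types were low or at 0 in M. Neutrophil genes summed to 99.3 CPM, with Retnlg, Ngp and Camp at 0, and 6 of 7 mast cell genes were at 0. T and NK cell genes summed to 87.8 CPM (Nkg7 and Klrb1c at 0), endothelial genes to 69.1 CPM and fibroblast genes to 33.1 CPM (Pdgfra at 0). Thyrocyte genes summed to 1284 CPM, nearly all of it Tg at 1252 CPM against 92030 CPM in the thyrocyte label Th1. Erythroid genes summed to 1064 CPM with Alas2 at 0. The 6 B cell genes summed to 501 CPM in M, and to 452 CPM in T1. They were at 3070 CPM in the 10 M cells of aN1aN2 3 (193 UMIs), at 591 CPM in RW 2 (203 UMIs) and at 0 to 350.2 CPM in the other 7 samples.

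The M cells were not of 1 kind. Clustering divided them into 4 subclusters. Of these, 1 was highest in the resident genes and 1 in the monocyte genes. Another had a strong Cx3cr1 and MHC class II profile, and the last held mostly shallow cells. The clustering used variable genes of these same cells, so levels in the subclusters are descriptions. Mitochondrial, ribosomal protein and globin genes were left out of the clustering. Subcluster 4 (34 cells, median 4520.5 UMIs) was led by Retnla, Cd209f, Lyve1, Folr2, Rnase2a, Ccl24, Ednrb, Cd209g, Cbr2 and F13a1. With 4 resident macrophage genes among its 10 leading genes it is called resident-macrophage-like. Its cells had Folr2 at 1832 CPM (76.5% of cells with a UMI), Lyve1 at 1461 CPM (70.6%), Cd163, the haemoglobin scavenger receptor, at 1796 CPM (76.5%) and F13a1, a clotting transglutaminase, at 3216 CPM (91.2%). Their Cd74 was at 7815 CPM, below the 26123 to 49154 CPM of the other 3 subclusters, and H2-Ab1 was at 2746 CPM against 10284 to 14681 CPM. Chemokines were also high there, with Ccl6 at 3169 CPM, Ccl8, a ligand of several CC receptors, at 1399 CPM and Ccl24, which attracts eosinophils, at 686 CPM. Ccr2 and Ly6c2 had no UMI in these 34 cells, which for each gene allows up to 8.82% of cells with a UMI.

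Subcluster 2 (79 cells, median 8370.0 UMIs) was led by Plac8, Ccr2, Chil3, Ccl17, Ear2, Klrd1, Cox6a2, Ly6c2, Klk1 and Fn1. Plac8, Ccr2, Chil3 and Ly6c2 are 4 of the monocyte genes, so it is called monocyte-like. Ccr2 was at 878 CPM there, with a UMI in 67.1% of cells, and Ly6c2, the antigen of inflammatory monocytes, at 159 CPM in 19.0%. C1qa was at 2011 CPM with a UMI in 41.8% of cells, the lowest of the 4 subclusters. This group was mixed, since Cd209a, a lectin of monocyte-derived dendritic cells, had a UMI in 30.4% of cells, Flt3 in 22.8% and the B cell gene Cd79a in 3.80%. It held all 226 UMIs of Ccl17 in M, a chemokine of dendritic cells. Its resident macrophage genes summed to 2483 CPM, against 785 and 1076 CPM in subclusters 1 and 3, and its monocyte genes to 3248 CPM. Proliferation genes summed to 825 CPM, against 72.3 to 194 CPM in the other 3 subclusters. T and NK cell genes summed to 152 CPM, against 5.16 to 42.1 CPM. Finer clustering split subcluster 2, and 43 of its 79 cells stayed in 1 cluster led by Plac8.

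Subcluster 3 (55 cells, median 4843 UMIs) was led by Tgfbr1, Gpr65, Apbb2, Ch25h, Ccl4, Nes, Gm43343, Il2ra, Igfbp3 and Tmem119 and stays unnamed, because none of its 10 leading genes was in a resident or monocyte list. Cx3cr1 had a UMI in 85.5% of its cells, at 936 CPM. C1qa was at 7563 CPM and Cd74 at 49154 CPM, and MHC class II genes summed to 96444 CPM, the highest of the 4. Tgfbr1, the type I receptor for TGF-beta, was at 627 CPM and Ms4a7, a membrane protein of macrophages, at 2565 CPM. Lyve1, Folr2 and Retnla had no UMI in these 55 cells.

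Subcluster 1 (210 cells of 378) stays unnamed and had a median of 731.5 UMIs, 0.211 of the median of all cells in the same samples, with 70.5% of its cells under 1000 UMIs and a median mitochondrial share of 9.75%. Its leading genes were Ccl5, Wfdc18, Krt17, Ccl21a, Hbb-bs, Krt5, Hba-a1, Hba-a2, Ager and Mir6236, which hold globins, keratins and a chemokine of lymphatic and thymic stroma. C1qa was nevertheless at 5067 CPM with a UMI in 86.2% of cells, Cd74 at 42104 CPM and Ms4a7 at 1566 CPM. Lyve1, Folr2, Retnla and Ly6c2 had no UMI in the 210 cells. Erythroid genes summed to 4305 CPM there and to 386 to 574 CPM in the other 3. The part of depth in setting these cells apart was not tested.

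**Figure D1:**
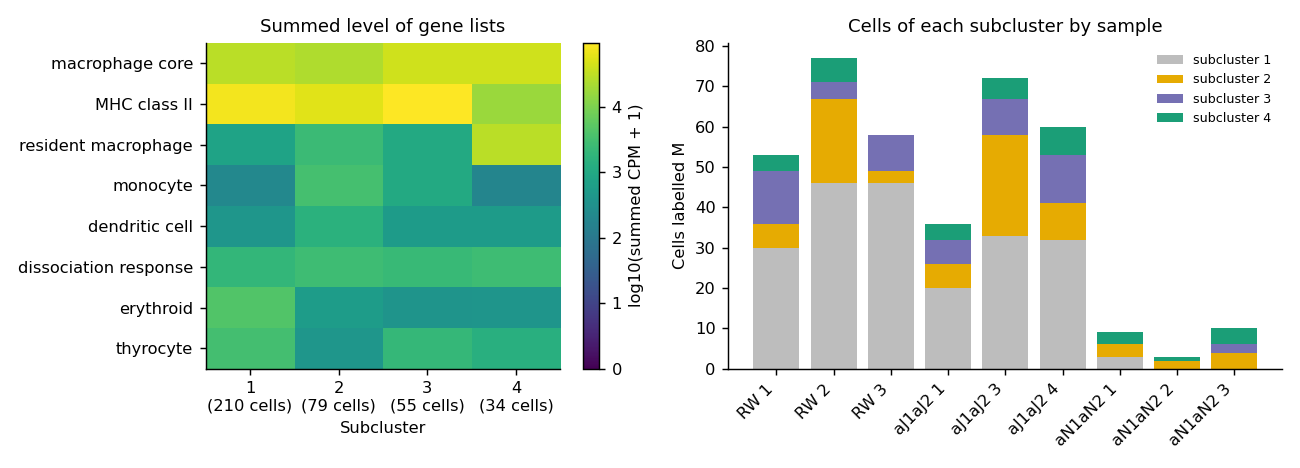
Left, summed level of 8 gene lists in the 4 subclusters of M cells, as log10 of CPM + 1 (colour), with cells per subcluster below. Right, number of M cells of each subcluster in each sample; subcluster 4 has the highest resident level (subclusters 2 and 4 are the monocyte-like and resident-macrophage-like ones) and no cell of it is in RW 3.

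Subclusters were spread unevenly over samples and were compared by counts, with no test. Subcluster 4 held 4, 6 and 0 cells in RW 1, 2 and 3, 4, 5 and 7 in aJ1aJ2 1, 3 and 4, and 3, 1 and 4 in aN1aN2 1, 2 and 3. RW 3 thus had no cell of subcluster 4, and had no UMI of Lyve1, Folr2, Timd4, Cd163 or Retnla in its 58 M cells. Of M cells, subcluster 4 took 5.32% in RW, 9.52% in aJ1aJ2 and 36.4% in aN1aN2. As a share of all cells of a sample it was 0.321%, 0.456% and 0% in RW 1, 2 and 3, 0.686%, 0.277% and 0.448% in aJ1aJ2 1, 3 and 4, and 0.287%, 0.113% and 0.582% in aN1aN2 1, 2 and 3, so the samples of all 3 groups overlapped. Subcluster 1 took 2.40%, 3.49% and 4.38% of all cells in RW, 3.43%, 1.83% and 2.05% in aJ1aJ2, and 0.287%, 0% and 0% in aN1aN2, where each sample lay below those of the other 2 groups. The monocyte-like subcluster 2 held 6, 21 and 3 cells in RW 1, 2 and 3, 6, 25 and 9 in aJ1aJ2 1, 3 and 4, and 3, 2 and 4 in aN1aN2 1, 2 and 3. RW 2 and aJ1aJ2 3 held 46 of its 79 cells.

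The first comparison between groups asked whether macrophages were as frequent after blockade. M made up 4.25%, 5.85% and 5.52% of all cells in RW 1, 2 and 3, 6.17%, 3.99% and 3.84% in aJ1aJ2 1, 3 and 4, and 0.860%, 0.339% and 1.46% in aN1aN2 1, 2 and 3. RW and aJ1aJ2 overlapped, whereas every aN1aN2 sample lay below every sample of the other 2 groups. The mean was 5.20% ± 0.845 (SD, n = 3) in RW, 4.67% ± 1.31 in aJ1aJ2 and 0.885% ± 0.559 in aN1aN2. aJ1aJ2 differed from RW by -0.54 percentage points (exact two-sided permutation p = 0.7, adjusted over 3 contrasts 0.7). aN1aN2 differed from RW by -4.32 points, a share 5.88 times lower, and from aJ1aJ2 by -3.78 points (exact permutation p = 0.1 each, adjusted 0.15). With 3 against 3 samples 0.1 is the smallest p this test can give. Without the labels Eryth1, Eryth2, T2 and P in the denominator, aJ1aJ2 differed from RW by -1.54 points (exact permutation p = 0.5). In series A aJ1aJ2 was 0.656 points above RW (1 sample each) and in series B 1.13 points below (2 samples each), so the direction was not shared. aN1aN2 and series C cannot be told apart.

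Depth also differed between the groups, and its part in the share was not tested. M cells had a median of 951 UMIs in RW, 1351 in aJ1aJ2 and 3090.5 in aN1aN2, whereas all cells had 3588, 3102 and 2169. Among cells of at least 1000 UMIs the M share was 3.06% ± 0.348 in RW, 3.29% ± 1.13 in aJ1aJ2 and 1.01% ± 0.741 in aN1aN2 (n = 3), so aN1aN2 was 3.03 times lower than RW and no sample overlapped (exact permutation p = 0.1). Among cells of at least 2000 UMIs it was 2.25% ± 0.702, 2.76% ± 0.724 and 1.12% ± 1.03, and aN1aN2 3, at 2.24%, lay above RW 1 and RW 3 (2.21% and 1.57%). There aN1aN2 was 2.02 times lower than RW (exact permutation p = 0.3). Of M cells and T1 cells together, a set without thyrocytes and vessels, M was 59.6% ± 10.6 in RW, 54.6% ± 23.4 in aJ1aJ2 and 32.7% ± 9.31 in aN1aN2. Here aN1aN2 1 and aN1aN2 3, at 33.3% and 41.7%, lay above aJ1aJ2 3 at 30.0%. For aN1aN2 the exact permutation p was 0.1 against RW (adjusted 0.3) and 0.3 against aJ1aJ2 (adjusted 0.45).

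**Figure D2:**
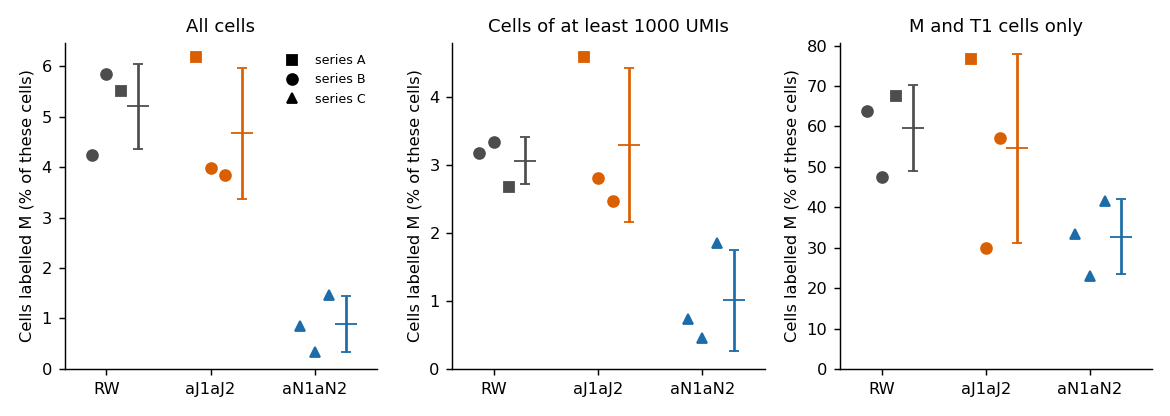
Share of cells labelled M in each sample (points; squares series A, circles series B, triangles series C) with the group mean and SD (bars, n = 3), as a percentage of all cells, of cells of at least 1000 UMIs, and of M and T1 cells. The 3 aN1aN2 samples lie lowest in the first 2 panels, and aJ1aJ2 1 lies highest in all 3.

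The second comparison asked which genes differed in M between aJ1aJ2 and RW, with UMIs summed over the M cells of each of the 6 samples. No gene did by the test. Of 2097 genes tested with edgeR's quasi-likelihood test, 0 (0%) had a Benjamini-Hochberg adjusted p under 0.05, and DESeq2 called 0 as well. An unadjusted p under 0.05 was reached by 77 genes in edgeR (61 in DESeq2). In aJ1aJ2, 39 of the 77 (1.86% of genes tested) lay above RW and 38 (1.81%) below. The 3 samples of each group did not overlap for 111 genes that were higher (5.29%) and 76 that were lower (3.62%). On simulated counts for this comparison (2067 genes), the test recovered 78% of changes of 2 on the log2 scale and 17% of changes of 1. At that spread it would miss most changes of 1. The spread was preset, the same for every gene and not estimated from these samples. Recovery for genes of a wider spread was not tested. The median log2 change of all tested genes was 0.00. Every gene named below for this comparison had an adjusted p of 0.9996 or more in edgeR's quasi-likelihood test after the filter on low counts. None of these genes is called higher or lower.

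The 6 markers gave no difference beyond the spread of samples. C1qa was at 6272, 3495 and 5803 CPM in RW 1, 2 and 3 and at 4632, 3102 and 5288 CPM in aJ1aJ2 1, 3 and 4, a log2 difference of -0.32 (SE 0.30). The groups overlapped almost fully, and RW 2 and aJ1aJ2 3, the samples with most monocyte-like cells, were the lowest of each. C1qb differed by -0.34 (SE 0.32) and C1qc by -0.28 (SE 0.28). Cd74 was at 36932, 27335 and 49105 CPM in RW and at 33876, 25771 and 25180 CPM in aJ1aJ2, a log2 difference of -0.48 (SE 0.28), with RW 3 highest of all. Lyz2 was at 11512, 8198 and 5712 CPM in RW and 9893, 8247 and 6158 CPM in aJ1aJ2 (-0.12, SE 0.28). Retnla was at 914, 594 and 0 CPM in RW and at 0, 1791 and 1809 CPM in aJ1aJ2, where 0 fell in both series A samples. Its 1283 UMIs came from 18 cells of 378. Core macrophage genes lay lower in aJ1aJ2 in 15 of the 18 members tested (of 19), with a median of -0.20 and 0 called. Aif1 was at 992, 609 and 1228 CPM in RW 1, 2 and 3 and at 526, 423 and 595 CPM in aJ1aJ2 1, 3 and 4. RW 2 lay just above aJ1aJ2 4, so the groups did not overlap, and the log2 difference was -0.93 (SE 0.30, unadjusted p 0.0133).

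**Figure D3:**
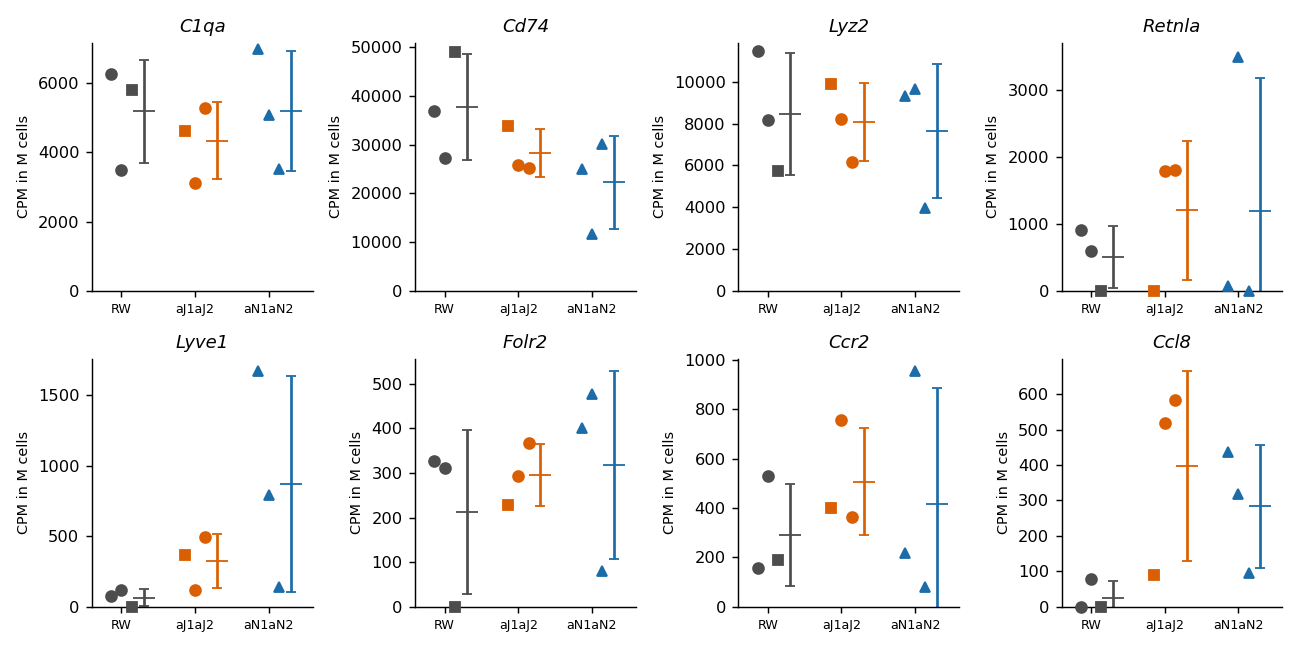
Level of 8 genes in the summed M cells of each sample, in CPM (points; squares series A, circles series B, triangles series C), with the group mean and SD (bars, n = 3, cut at 0). C1qa, Cd74 and Lyz2 overlap between groups, Retnla is at 0 in RW 3 and aJ1aJ2 1, and the aN1aN2 points rest on 3 to 10 cells each.

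MHC class II genes, which load peptides for T cells, lay lower in aJ1aJ2 in all 6 tested members (of 8), with a median log2 difference of -0.41 and 0 called. H2-Ab1 was at 12276, 10892 and 12771 CPM in RW 1, 2 and 3 and at 10177, 9173 and 8761 CPM in aJ1aJ2 1, 3 and 4. The groups did not overlap, and the log2 difference was -0.41 (SE 0.19, unadjusted p 0.0576). H2-Aa differed by -0.52 (SE 0.24) and H2-Eb1 by -0.42 (SE 0.22). Without RW 3, the sample with no cell of subcluster 4, the differences were -0.32 for H2-Ab1, -0.28 for H2-Aa, -0.28 for H2-Eb1 and -0.21 for Cd74.

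Resident macrophage genes lay higher in aJ1aJ2 in 12 of the 13 members tested (of 14), with a median of 0.38 and 0 called. The 14 genes summed to 4986, 6165 and 926 CPM in RW 1, 2 and 3 and to 6086, 4863 and 7734 CPM in aJ1aJ2 1, 3 and 4, so RW 1 and RW 2 lay within the aJ1aJ2 range and RW 3 alone stood below it. Lyve1 was at 78.3, 119 and 0 CPM in RW 1, 2 and 3 and at 367, 118 and 496 CPM in aJ1aJ2 1, 3 and 4. aJ1aJ2 3 lay just below RW 2, and the log2 difference was 2.11 (SE 0.75, unadjusted p 0.0195), 1.66 without RW 3 and 2.87 without RW 2. Cd163 was at 91.4, 245 and 0 CPM in RW and at 325, 334 and 397 CPM in aJ1aJ2, which did not overlap (log2 difference 1.497, SE 0.69), and the difference was 1.02 without RW 3 and 2.81 without RW 2. Timd4, a receptor for dying cells, was the member that lay lower (-0.63). In each group these values rest on few cells, since Lyve1 had a UMI in 27 of 378 M cells. With no filter on low counts Lyve1, Cd163 and Retnla passed the adjusted test.

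Monocyte genes gave a median of 0.73 over 9 tested members of 17, with 6 higher in aJ1aJ2, 3 lower and 0 called. Ccr2 was at 157, 530 and 189 CPM in RW 1, 2 and 3 and at 402, 758 and 362 CPM in aJ1aJ2 1, 3 and 4, and RW 2 lay within the aJ1aJ2 values. The difference was 0.75 (SE 0.44). To compare cells at 1 depth, each cell was thinned to 1000 UMIs, which kept 211 M cells and left out 167. Ccr2 then had a UMI in 6.06%, 21.1% and 4.55% of cells in RW and 22.7%, 24.4% and 12.5% in aJ1aJ2. RW 2 lay within the aJ1aJ2 values, and the means were 10.6% and 19.9% (exact permutation p = 0.2, adjusted over 8 markers 0.533), and unthinned shares were 3.45% to 16.9% in RW and 13.3% to 22.2% in aJ1aJ2. Thinned to 500 UMIs, which left out no M cell, it had a UMI in 1.89%, 3.90% and 1.72% of cells in RW and 8.33%, 12.5% and 8.33% in aJ1aJ2. Every aJ1aJ2 sample then lay above every RW sample, with means of 2.50% ± 1.21 and 9.72% ± 2.41 (n = 3, exact permutation p = 0.1, the smallest this test can give, adjusted 0.8). These shares rest on 1, 3 and 1 cells in RW 1, 2 and 3 and 3, 9 and 5 in aJ1aJ2 1, 3 and 4, from 1 random draw. H2-Aa was seen in 93.3% ± 6.15 of thinned RW cells and 86.8% ± 0.588 of aJ1aJ2 cells (n = 3, exact permutation p = 0.1, adjusted 0.533). At 500 UMIs it was seen in 90.6% ± 8.17 and 85.6% ± 3.64 (exact permutation p = 0.5), with overlap. Lyve1, Folr2, Timd4, Cd163, Ly6c2 and Retnla had an adjusted p of 0.533 or more in the same exact test. In EC1, vessel cells that should lack these genes, the thinned share was 0% to 0.312% for 7 markers and 1.87% for H2-Aa.

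Signals sent and received by macrophages were examined as lists of ligands and receptors. Of 26 chemokines, cytokines and growth factors 12 were tested, 4 lay higher and 8 lower in aJ1aJ2, with a median of -0.21. Ccl8 had 0, 27 and 0 UMIs in RW 1, 2 and 3 (0, 78.6 and 0 CPM) and was at 90.0, 518 and 584 CPM in aJ1aJ2 1, 3 and 4. No sample overlapped, and the log2 difference was 3.49 (SE 0.93, unadjusted p 0.00461). Its size rests on RW 2, without which RW has 0 UMIs and the fitted difference, then no measure of size, is 9.25. Ccl6, a chemokine of myeloid cells, was at 600, 565 and 246 CPM in RW and 727, 666 and 1220 CPM in aJ1aJ2, also without overlap (0.85, SE 0.36). Both genes were highest in subcluster 4. Of 19 receptors 13 were tested with a median of -0.16, and Ifngr1, a chain of the interferon-gamma receptor, was at 241, 271 and 274 CPM in RW against 402, 364 and 350 CPM in aJ1aJ2 (0.46, SE 0.19). Il6 and Csf1 were at 0 in M, and Il10 and Tnf were at 1.44 and 2.88 CPM.

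Uptake genes were mostly a little lower in aJ1aJ2, whereas lipid genes went both ways, and none was called. Of 17 phagocytosis and lysosome genes tested (of 20), 14 lay lower, with a median of -0.37. Axl, which binds dying cells through Gas6, was at 235, 288 and 218 CPM in RW and at 180, 178 and 175 CPM in aJ1aJ2. The groups did not overlap (-0.52, SE 0.21), and aJ1aJ2 samples were close to each other. Ctsb, a lysosomal protease, differed by -0.58 (SE 0.23), and by -0.31 without RW 2, which at 2999.6 CPM stood above all others. Plin2, which coats lipid droplets, differed by -0.85 (SE 0.36). Medians were -0.27 for 7 lipid genes (3 higher and 4 lower), -0.34 for 5 iron and haem genes and 0.18 for 9 complement genes.

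The Notch pathway itself was sparse in M. Of 22 genes 16 had UMIs, and Notch3, Dll4, Hes5, Hey2, Heyl and Dtx1 were at 0. Notch2, the receptor tied to monocyte and dendritic cell fates, was at 99.3 CPM and Rbpj, the DNA-binding partner of cleaved Notch, at 149 CPM, the highest of the 16 labels for Rbpj. Notch1 was at 23.8 CPM in M and 351 CPM in EC4, and the target Hes1 at 10.1 CPM in M and 221 CPM in EC1. Only 4 of the 22 genes had enough UMIs for the test. Notch2 was at 111, 116 and 56.1 CPM in RW 1, 2 and 3 and at 111, 56.2 and 58.4 CPM in aJ1aJ2 1, 3 and 4, which overlapped (-0.47, SE 0.37). Rbpj differed by 0.23 (SE 0.24).

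The 5 genes of smallest unadjusted p in each direction did not pass the test either. Higher in aJ1aJ2 were Btg2, an antiproliferative gene, Ccnd3, a G1 cyclin, Ccl8, Gda, guanine deaminase, and Ecm1, an extracellular matrix protein. Lower were Ifi27l2a and Rtp4, both known as interferon-induced, Lap3, an aminopeptidase, B2m, the light chain of MHC class I, and Pla2g16, a phospholipase. Ccnd3 and Gda passed the filter on low counts only through the aJ1aJ2 samples, and Rtp4 and Pla2g16 only through the RW samples. Their direction was thus partly set by that filter. Ifi27l2a was at 995 ± 102 CPM in RW and 525 ± 97.0 CPM in aJ1aJ2 (SD, n = 3), a log2 difference of -0.97 (SE 0.20, unadjusted p 0.00084). B2m was at 2478 ± 150 CPM in RW and 1716 ± 109 CPM in aJ1aJ2 (-0.57, SE 0.16). Btg2 was at 93.1 ± 7.20 CPM and 218 ± 61.6 CPM (1.20, SE 0.29). Of 12 interferon-stimulated genes fixed as a list, 2 were tested, with a median of -0.13 and neither called.

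Transcripts of the response to digestion and of other cells were also compared. Of 8 tested dissociation-response genes 6 lay higher in aJ1aJ2, with a median of 0.14. The whole list summed to 2643, 2356 and 2779 CPM in RW 1, 2 and 3. In aJ1aJ2 1, 3 and 4 it summed to 2735, 2294 and 2416 CPM, so the groups overlapped. Fos, an immediate early gene, was at 71.8, 46.6 and 21.1 CPM in RW and 125, 94.7 and 152 CPM in aJ1aJ2 (1.34, SE 0.40). The globin Hbb-bs was at 3100, 539 and 91.2 CPM in RW 1, 2 and 3 and at 96.9, 198 and 268 CPM in aJ1aJ2 1, 3 and 4, so that RW 1 stood far above the rest (-2.77, SE 1.00, and -0.76 without RW 1). Hba-a1 and Hba-a2, near-identical copies whose split is uncertain, differed by -3.39 and -2.86, and by -1.90 and -1.26 without RW 1. Thyrocyte transcripts summed to 623 to 1109 CPM in RW and to 415, 941 and 2889 CPM in aJ1aJ2 1, 3 and 4. The part of these transcripts in the differences above was not tested.

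**Figure D4:**
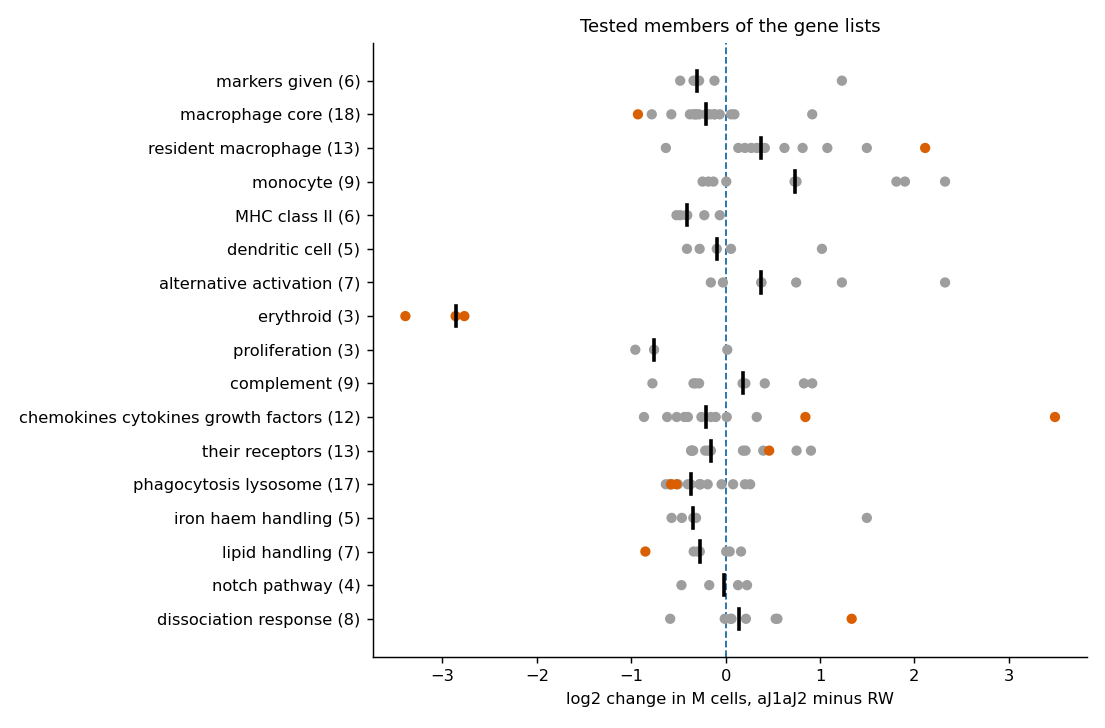
Log2 change (aJ1aJ2 minus RW) of each tested member of 17 gene lists in M cells, with the number tested in brackets; orange points have an unadjusted p under 0.05, black bars are list medians and the dashed line is the median of all 2097 genes. MHC class II lies left of 0 and resident macrophage mostly right of it, and no point passes the adjusted test.

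Levels in aN1aN2 rest on 22 cells and had no test. These were 9, 3 and 10 cells in aN1aN2 1, 2 and 3, with 27495, 6295 and 62875 summed UMIs. Of these cells 5, 1 and 4 had a UMI of Cd163. aN1aN2 cannot be told apart from series C here either. C1qa was at 6983, 5083 and 3531 CPM in aN1aN2 1, 2 and 3, overlapping RW. Cd163 was at 909, 1747 and 1018 CPM and Selenop, which exports selenium and was high in subcluster 4, at 6183, 5719 and 2481 CPM, in each sample above all RW and aJ1aJ2 samples. Ms4a7 was at 255, 0 and 302 CPM, below all of them. In these 22 cells subcluster 1 held 3 cells and subcluster 4 held 8, and the part of this makeup in the gene levels was not tested. Tsc22d3, induced by glucocorticoids, was at 2400, 3495 and 938 CPM in aN1aN2, at 112 to 262 CPM in RW and at 136 to 478 CPM in aJ1aJ2. Fkbp5, a further glucocorticoid-induced gene, was at 473, 477 and 366 CPM in aN1aN2, at 6.53 to 14.6 CPM in RW and at 23.3 to 71.0 CPM in aJ1aJ2.

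C1q transcripts also occurred outside M, in few cells. Among the other 15 labels 74 cells had at least 5 UMIs of C1qa, C1qb and C1qc together, 42 of them in Th1 and 25 in EC1. In EC1 the level of these 3 genes was 105, 78.5 and 197 CPM in RW 1, 2 and 3, 39.2, 33.6 and 23.8 CPM in aJ1aJ2 1, 3 and 4, and 0, 0 and 9.49 CPM in aN1aN2 1, 2 and 3. In EC1 every RW sample lay above every sample of the other 2 groups. In Th1 this was not so, with 49.1, 35.4 and 95.7 CPM in RW, 215, 57.7 and 11.4 CPM in aJ1aJ2 and 2.19, 0 and 67.6 CPM in aN1aN2, where all groups overlapped. Cells with at least 5 C1q UMIs were 18 of 661 in RW and 7 of 678 in aJ1aJ2, and they held 675 of the 711 and 90 of the 113 C1q UMIs of EC1. In single samples they numbered 3, 5 and 10 in RW 1, 2 and 3, 1, 4 and 2 in aJ1aJ2 1, 3 and 4, and 0 in each aN1aN2 sample.

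Those 25 EC1 cells had a median of 12715 UMIs against 3948.5 in the other EC1 cells. Their endothelial genes summed to 16421 CPM and to 15998 CPM in the other EC1 cells, and their core macrophage genes summed to 4249 CPM, against 114 CPM in the other EC1 cells and 31091 CPM in M. No doublet caller was run, and whether these are 2 cells in 1 droplet was not tested. Depth ran in the same order over the groups as the numbers of cells with at least 5 C1q UMIs, with a median of 4813 UMIs in EC1 cells of RW, 3558 in aJ1aJ2 and 2752 in aN1aN2, and of 17624, 12946 and 6499.5 in Th1, and its part was not tested. In F, fibroblasts that should lack C1q, no cell reached 5 C1q UMIs, and in Th1 they were 24 of 425 cells in RW, 17 of 396 in aJ1aJ2 and 1 of 348 in aN1aN2.

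Summed levels of C1qa, C1qb, C1qc, Lyz2 and Cd74 in EC1 were also set beside the M share of each sample. Since the aN1aN2 shares form a cluster of their own, r is given over the 6 RW and aJ1aJ2 samples, for 3 labels. Pearson's r was 0.28 in EC1 (exact permutation p = 0.633, adjusted 0.906; rho 0.26, p = 0.658, adjusted 0.714), 0.21 in F and -0.09 in T1 (adjusted p 0.906 in the same exact permutation test). Spearman's rho was -0.26 in F (p = 0.658) and 0.20 in T1 (p = 0.714), each with an adjusted exact permutation p of 0.714. Without aJ1aJ2 1 and aJ1aJ2 4, the 2 samples farthest from the median share, r was 0.56, 0.34 and -0.12.

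**Figure D5:**
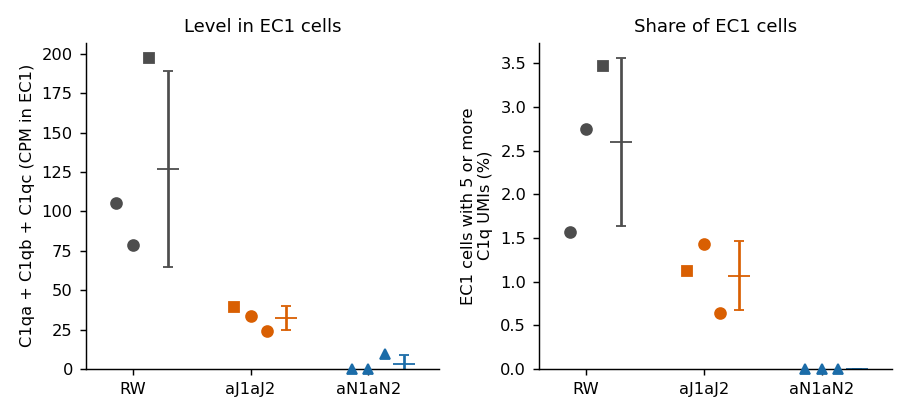
Left, level of C1qa, C1qb and C1qc together in EC1 cells of each sample, in CPM. Right, EC1 cells with at least 5 such UMIs as a percentage of EC1 cells (points; squares series A, circles series B, triangles series C; bars mean and SD, n = 3, cut at 0); RW is highest on the left, and on the right RW 1 is at 1.57% and aJ1aJ2 3 at 1.43%.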

How the data were processed

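Single thyroid cells of 9 pools of mice were profiled with the 10x Genomics 3′ kit, per the labels. The authors deposited raw UMI counts per gene and cell with an annotation of cell labels, and how the labels were made is not given in the sources used here. The submitters' processing notes name Cell Ranger and GRCm38. Every deposited count was a whole number, each cell had at least 500 UMIs, and 2619 annotation lines were repaired for an unquoted comma. Symbols matched 52403 of 52636 identifiers, and the rest held 0.0293% of UMIs. No column belonged to another series.

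Counts were summed per sample over M cells where a sample had at least 20 (6 samples, none of aN1aN2), filtered with filterByExpr, TMM-normalized and tested with edgeR 4.0.16 in R 4.3.3. CPM values are of the sum. DESeq2 1.42.0 was an alternative. Replicates are pools of mice, so p-values measure the spread between pools, and no pair of them agreed within UMI counting noise (chi-square per degree of freedom 2.36 to 4.97), so none was taken for a repeat deposit of the same library. Subclusters used scanpy 1.11.5 (counts scaled to 10000 per cell, 1000 variable genes, 15 components, 15 neighbours, Leiden resolution 0.5), with no doublet removal. Mitochondrial, ribosomal protein and globin genes were left out before the variable genes were chosen. Shares have exact 95% binomial intervals, a count of 0 allows 3 counts, and both cover counting error only. Shares were tested over samples by exact permutation, two-sided.

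Members and lists were chosen with earlier results of these data known. Named genes are the 6 markers, members of 27 lists, the 15 leading genes, 10 per subcluster, and, since fewer than 10 genes passed, the 5 of smallest p in each direction.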

Additional observations from a re-analysis of the deposited data

How the results depend on the processing

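No gene was called between aJ1aJ2 and RW in 15 of 16 alternatives. With no filter on low counts 36 of 14883 genes were called (20 higher, 16 lower), led by Rnase2a, Hba-a1, Hbb-bs, Ccl8 and Hba-a2, and these also held Lyve1 (adjusted p 1.11e-06), Cd163 (0.00181) and Retnla (0.00575) by edgeR's quasi-likelihood test. Leaving out 1 sample gave 0 calls each time, with 42 (without aJ1aJ2 4) to 221 (without RW 2) genes at an unadjusted p under 0.05, and 48 without aJ1aJ2 3. The 2 alternatives without shallow cells, chosen after seeing the data (M cells of at least 1000 UMIs, and M without subcluster 1), gave 0 calls with 58 and 56 genes at that p. Of the named genes, Lyz2 changed sign without RW 1 (0.21) and without aJ1aJ2 4 (0.04), and ran from -0.31 to 0.21 over the samples left out. The M share of aJ1aJ2 minus RW changed sign in series A (0.656 points), among cells of at least 1000 UMIs (0.228) and, chosen after seeing the data, of at least 2000 UMIs (0.506). Without Eryth1, Eryth2, T2 and P it was -1.54. Leaving out 1 sample it ran from -1.29 to -0.122 points, aN1aN2 minus RW from -4.80 to -3.998 and aN1aN2 minus aJ1aJ2 from -4.20 to -3.03. The thinned shares of aJ1aJ2 minus RW ran, leaving out 1 sample, from 6.33 to 14.6 points for Ccr2, 3.88 to 10.5 for Cd163, 2.43 to 7.70 for Folr2, -9.21 to -3.15 for H2-Aa, 1.75 to 4.78 for Ly6c2, 1.13 to 6.39 for Lyve1, -3.61 to 0.933 for Retnla and -1.62 to 1.41 for Timd4, and the last 2 changed sign. At Leiden resolution 1.0 there were 8 subclusters. The best match shared 86 of 210 cells of subcluster 1, 43 of 79 of subcluster 2, 52 of 55 of subcluster 3 and 34 of 34 of subcluster 4, and 26 cells led by Top2a formed a cluster with proliferation genes at 4692 CPM. Another 64 cells (median 691 UMIs, 10 of them in RW 3), led by Apoc1, Vcam1, Slc40a1 and the lymphoid genes Trbc2 and Rag1, had resident macrophage genes at 6332 CPM, against 28807 CPM in the 34, and T and NK cell genes at 838 CPM. Without MHC class II and dissociation genes there were 4, and the best matches shared 196, 48, 54 and 31 cells. No paired analysis was possible because RW and aJ1aJ2 share fewer than 2 replicate numbers in the labels and aN1aN2 had too few M cells to test. A fit with series as a term instead called 0 genes (91 at an unadjusted p under 0.05), and series B alone called 0 (96). Depth limits M, with 44.2% of its cells under 1000 UMIs.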
